A study of Mus musculus with 90 samples.

Results

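Regions of the mouse genome that carried trimethylated lysine 4 of histone H3 (H3K4me3) and Menin, but no called peak of the methyltransferase Mll2, were examined in embryonic stem cells. They were found by merging overlapping autosomal H3K4me3 peaks of 2 libraries. A merged region was kept when it held peaks of both libraries, was at most 5000 bp wide, overlapped a Menin peak by at least 1 bp and overlapped no Mll2 peak of either of 2 sera. The 711 members were thus selected on measured peak calls. They were 711 of 18336 autosomal H3K4me3 regions found in both libraries, and 3.95% of the 17999 that met the width limit (exact Clopper-Pearson 95% interval 3.67 to 4.25%). The number depends on which lists are used: it was 1821 without H3K4me3 replicate 3, 898 without replicate 1, and 1416 with serum 9172 as the only Mll2 list. Menin was called at 89.2% and no Mll2 at 10.3% of those 17999 regions. Since the peak calls of all 5 libraries chose the members, their H3K4me3 and Menin presence and their lack of Mll2 peaks are not findings. Members had been chosen with earlier results of these data known.

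All libraries were made from V6.5, a line of mouse embryonic stem cells, grown with serum and leukaemia inhibitory factor and labelled as wild type. The H3K4me3 libraries (replicates 1 and 3, home-made antibody 28) were of cells infected with a lentiviral control hairpin against GFP. The Menin library (Bethyl antibody) and the Mll2 libraries (home-made sera 9172 and 9175) were of cells for which no hairpin is named. H3K4me3 was therefore measured in other cell preparations than the proteins. The series has 90 samples, and its mutants, knockdowns, RNA-seq and 4C-seq were not analysed here.

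H3K4me3 marks active and poised promoters and is laid down by COMPASS-type complexes. Mll2 (Kmt2b) is the catalytic subunit of one of them, and its CXXC domain binds unmethylated CpG-rich DNA. Menin is a scaffold protein that binds the amino termini of Mll1 and Mll2 and belongs to the complexes of both. Sequences and gene names of these regions are not given, because the coordinates are in build mm9 and no genome or annotation of that build was used here.

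The libraries kept 11550409 to 21936546 tags each after removal of duplicates, Menin having the fewest and H3K4me3 replicate 1 the most, and the lists held 19912 to 43544 peaks. MACS, the peak caller, admitted peaks at p of 1e-05, which is a score of 50 (minus 10 times the log10 of p). A region without a Mll2 peak is thus one where none was called at this depth, and not one shown to lack Mll2. The smallest Mll2 peak called at an H3K4me3 region with Menin held 13 tags in either serum. There was 1 library per antibody against a protein, and whether the H3K4me3 replicates were separate cultures is not given in the sources used here. No test of a difference was possible over samples, so values are compared as descriptions. Intervals are binomial, cover counting error only and treat regions as independent.

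In H3K4me3 level the 711 regions were weak. Their median fold enrichment, the ratio of ChIP tags to the background that MACS estimated, was 11.4 in replicate 1 (quartiles 7.80 and 17.6, range 3.66 to 65.6) and 9.44 in replicate 3 (quartiles 7.59 and 12.7, range 3.81 to 69.6). The 14286 regions of like width limit that held Menin and Mll2 of both sera had medians of 47.3 and 44.6. Regions with Menin and a single serum lay between, with replicate 1 medians of 13.7 for the 355 with serum 9172 alone and 13.01 for the 705 with serum 9175 alone. The 1145 regions with neither Mll2 nor Menin had medians of 13.2 and 10.7, somewhat above those of members. A few members were strong, with 25 of 711 (3.52%) at a replicate 1 fold of at least 40.

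Density, the tags per kb of peak scaled to 10000000 kept tags of a library, separated the same groups. The median H3K4me3 density of members was 32.9 in replicate 1 and 30.6 in replicate 3, against 119 and 132 where Menin and Mll2 of both sera were found and 31.8 and 29.8 where neither protein was. By density, unlike fold, members were thus slightly above the regions with neither. Across members the densities of the libraries ranked alike, with a Spearman's rho of 0.743 over 711 regions, which share chromatin background and the peak calling and are not replicates. Replicate 1 was the denser of the libraries at 59.1% of members (55.4 to 62.7%), against 47.1% of all H3K4me3 regions within the width limit. The mean over the bins of comparison regions described further on was 49.1%, and single bins ran from 27.1 to 65.1%. The median difference between the libraries was 0.08 on the log2 scale (interval 0.04 to 0.11), which is small beside the quartile range of -0.16 to 0.32. This difference was below the comparison median of those bins in 36.7% of members. With Menin and a single serum the shares were alike, 38.5% for serum 9172 alone and 35.6% for serum 9175 alone.

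**Figure D1:**
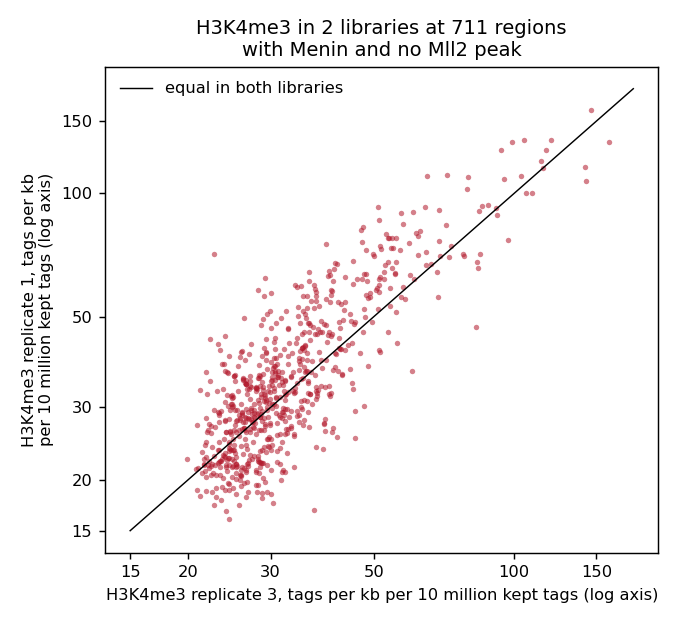
H3K4me3 tags per kb, scaled to 10000000 kept tags, in replicate 1 (vertical) and replicate 3 (horizontal) at each of the 711 regions with Menin and no Mll2 peak, on log axes with the line of equality. Medians are 32.9 in replicate 1 and 30.6 in replicate 3, and points thin out towards the highest values, 159.6 and 159.3.

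H3K4me3 was denser at most regions with Menin and Mll2 of both sera than at members. Members were therefore compared with such regions of like density. The mean log2 density of both libraries was cut at the members' quintiles into 5 bins, running from 19.6 to 153 in units of density. These bins held 142 or 143 members each, and 144, 386, 453, 1119 and 6520 comparison regions from the lowest to the highest bin. A further 5663 comparison regions were denser than any member and 1 was less dense, and these were left out. In the 4 lower bins the median density differed little, for example 38.7 in members and 39.4 in comparison regions of bin 4. In bin 5 it did not match, with 59.5 in members and 94.5 in comparison regions, so that bin is not a comparison at like level.

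Menin was the measure in which members and comparison regions differed most. In bin 1 the median Menin density was 31.4 in members (quartiles 28.1 and 35.8) and 39.3 in comparison regions (34.3 and 47.5). In bin 2 it was 32.7 and 41.7, in bin 3 32.2 and 40.6, in bin 4 31.2 and 41.9, and in bin 5 32.9 and 49.9, members first. The quartile ranges of the groups overlapped in bins 1 to 3 and were apart in bins 4 and 5. Of the members, 641 of 711 (90.2%, interval 87.7 to 92.2%) lay below the comparison median of their bin, against 56.2% of all H3K4me3 regions with Menin in the same density range, most of which are comparison regions themselves. In the 4 lower bins alone the share was 88.9%. The presence of a Menin peak is part of the rule for both groups, and the calling limit, a score of 50, sets a floor on its height. Height above that floor is not part of the rule.

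Menin density did not follow H3K4me3 density among members. Spearman's rho between them was 0.02 over the 711 members and 0.35 over the 8622 comparison regions in the members' density range. Both are descriptions across regions of single libraries. Of the 8622 comparison regions, 6520 lay in bin 5, where H3K4me3 densities did not match those of members. In bins 1 to 4 the comparison medians of Menin density also stayed close, between 39.3 and 41.9, and only bin 5 was higher at 49.9. The rho values therefore do not compare the groups at like H3K4me3 level. Member medians of Menin density stayed between 31.2 and 32.9 over all 5 bins, and the lowest Menin density of a member was 23.0. Fold enrichment gave a smaller contrast, with a member median of 8.94 (quartiles 7.71 and 11.0) and with 76.7% of members (73.4 to 79.7%) below the comparison median of their bin, against 53.9% of all regions with Menin. The value 8.94 itself occurred in 48 members.

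**Figure D2:**
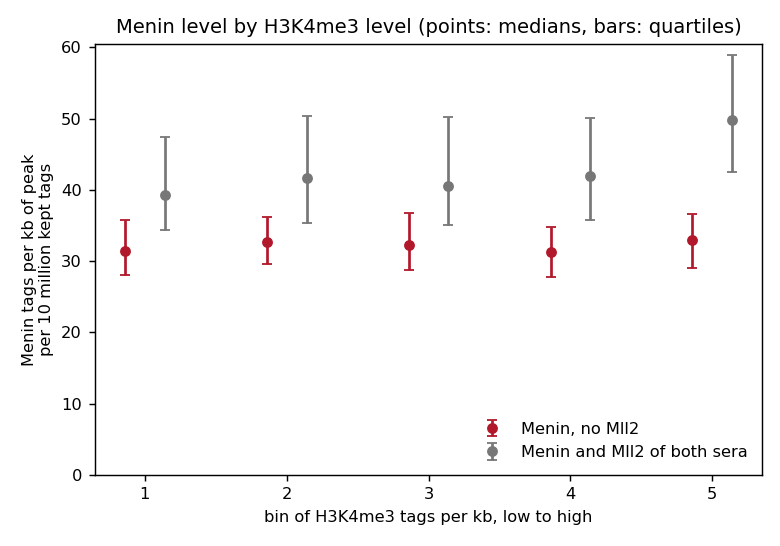
Menin tags per kb of peak, scaled to 10000000 kept tags, in 5 bins of H3K4me3 tags per kb, for regions with Menin and no Mll2 (left of each pair) and regions with Menin and Mll2 of both sera (right); points are medians and bars quartiles. Members stay near 32 in every bin. Comparison regions stay between 39.3 and 41.9 in bins 1 to 4 and reach 49.9 in bin 5, the bin in which their H3K4me3 was also denser.

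Menin peaks at members were also short and rested on few tags. The strongest Menin peak of a member had a median length of 760 bp (quartiles 560.5 and 1055), and the Menin peaks of a member held a median of 31 tags, from 11 to 411. In bins 1 to 4, comparison regions had median peak lengths of 1144 to 1322 bp and 55 to 68.5 tags. In bin 5, where H3K4me3 densities did not match, they had 1506 bp and 96 tags. The Menin score of members had a median of 99.4, and 116 of 711 (16.3%) were below 60, near the calling limit of 50, against a mean of 2.75% over the comparison bins. At the limit, the 3 members with the lowest Menin scores had 50.01, 50.05 and 50.38, with 13, 14 and 12 Menin tags. Just outside the rule on Mll2 were 3 regions with a serum 9175 peak of score 50.02, 50.03 and 50.1, holding 17, 15 and 13 Mll2 tags at folds of 7.58, 8.15 and 6.52. Members thus reach down to the calling limit of Menin, and their neighbours outside the rule reach down to that of Mll2.

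Regions with Menin and a single Mll2 serum were examined in the same bins, to see whether Menin differed between them and members. Of the 351 regions with serum 9172 alone that fell in the bins, 87.7% (83.9 to 91.0%) had a Menin density below the comparison median, and of the 705 with serum 9175 alone 81.7% (78.7 to 84.5%) did, against 90.2% of members. By Menin peak length the shares below the median were 77.5% and 72.3%, against 85.4% of members. The intervals of members and of regions with serum 9172 alone overlapped for density (members 87.7 to 92.2%) and not for length (82.6 to 87.9% in members, 72.8 to 81.8% with serum 9172 alone). Those of members and of regions with serum 9175 alone overlapped in neither measure. By Menin fold the shares below the median were 72.9% (68.0 to 77.5%) with serum 9172 alone and 70.4% (66.8 to 73.7%) with serum 9175 alone. Both of these intervals overlapped that of members (76.7%, 73.4 to 79.7%), so the separation depended on the measure.

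Members were slightly narrower than comparison regions at like density. The median width of all members was 1109 bp (interval 1079 to 1156 bp), and the range was 325 to 3862 bp. By bin, member and comparison medians were 913.5 and 974 bp, 1015.5 and 1126.5 bp, 1150 and 1239 bp, 1201.5 and 1375 bp, and 1358 and 1927 bp. In total 66.7% of members (63.1 to 70.1%) were narrower than the comparison median of their bin, against 52.8% of all regions with Menin. In the 4 lower bins alone, where densities were alike, 63.6% of members were. Regions with Menin and a single serum had similar shares, 63.2% (58.0 to 68.3%) with serum 9172 alone and 67.8% (64.2 to 71.2%) with serum 9175 alone. The narrowness was thus not particular to members. A wide region is overlapped by a Mll2 peak more easily, and the rule uses overlap, so width is not independent of the choice of members. The width limit of 5000 bp itself did not bind, since none of the 337 wider H3K4me3 regions had Menin without Mll2. The 3 widest members measured 3862, 3494 and 3370 bp.

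**Figure D3:**
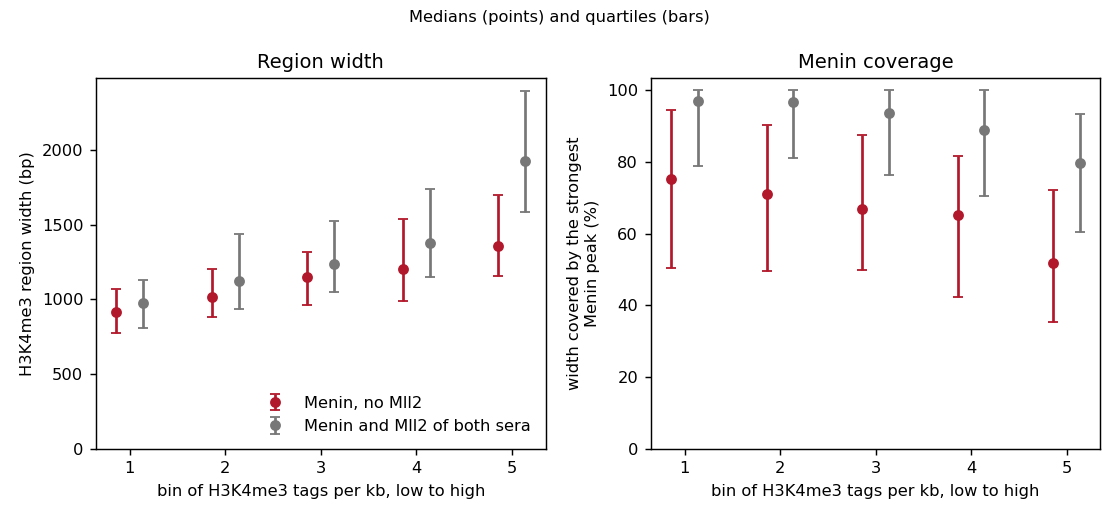
Width of H3K4me3 regions (left panel, bp) and share of that width covered by the strongest Menin peak (right panel, percent) in 5 bins of H3K4me3 tags per kb; in each pair the region with Menin and no Mll2 is on the left and the one with Menin and Mll2 of both sera on the right, points are medians and bars quartiles. Coverage was lower in members in each bin, 75.2% against 96.8% in bin 1 and 65.2% against 88.9% in bin 4. It was 51.7% against 79.6% in bin 5, where H3K4me3 densities did not match.

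Menin sat within the mark and covered less of it. Its summit fell inside the H3K4me3 region in 661 of 711 members (93.0%, interval 90.8 to 94.7%). The background over all H3K4me3 regions with Menin was 97.5%. In bins 1 to 4, where densities were alike, the share was 91.5% of members (89.0 to 93.7%) and a mean over bins of 90.5% of comparison regions, which lies within the members' interval. The Menin summit lay a median of 176 bp from the H3K4me3 summit in replicate 1 and 174 bp in replicate 3, with 202 and 177 bp in comparison regions of all densities. The strongest Menin peak covered a median of 66.1% of a member's width (quartiles 45.7 and 84.8%). Of the members, 82.1% (79.1 to 84.9%) were covered less than the comparison median of their bin. With Menin and a single serum the shares were 74.1% (69.2 to 78.6%) for serum 9172 alone and 67.8% (64.2 to 71.2%) for serum 9175 alone. Coverage and Menin peak length are in part the same measurement.

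By the rule members touched no Mll2 peak, and lying near one was not particular to them. The nearest Mll2 peak of either serum was a median of 6771 bp away (quartiles 2349.5 and 17898 bp, range 32 to 744685 bp). A Mll2 peak outside the region lay within 5000 bp of 306 members (43.0%, interval 39.4 to 46.8%). For all H3K4me3 regions the share with a Mll2 peak outside but within 5000 bp was 30%. In bins 1 to 4 the share was 44.7% of members (40.6 to 48.9%) and a mean over bins of 48.9% of comparison regions. The direction of this difference was not stable: at a score of at least 100 in all lists it was 36.9% of members and 34.0% of comparison regions in those bins. Within 1000 bp the share was 8.58% of members (6.63 to 10.9%) and an average of 16.0% of comparison regions over 5 bins. From bin 1 to bin 4 it was 12.0, 8.45, 7.75 and 6.34% of members. In comparison regions of those bins it was 18.75, 19.4, 17.9 and 15.7%. In bin 5, where H3K4me3 densities did not match, it was 8.39% and 8.42%, members first. In 13 members (1.83%) the strongest Menin peak ran beyond the region into a Mll2 peak. The nearest Mll2 peak of a member lay in another H3K4me3 region of both libraries in 448 of 711 cases (63.0%), and had a median fold of 10.4.

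The other H3K4me3 regions around members were mostly of the common kind. The nearest one was a median of 10041 bp away (quartiles 3570 and 27026 bp), and it held Mll2 of both sera in 568 of 711 cases (79.9%, interval 76.7 to 82.8%), against 80.8% of all H3K4me3 regions, a share near the background. Of the members, 354 (49.8%, interval 46.1 to 53.5%) had another H3K4me3 region within 10000 bp. The background over all H3K4me3 regions was 33.2%. In bins 1 to 4 the share was 51.1% of members (46.9 to 55.2%) and a mean over bins of 49.1% of comparison regions, within the members' interval. At a score of at least 100 in all lists it was 49.6% of members (45.2 to 54.0%) and 38.1% of comparison regions in those bins, so the size of the difference depends on that limit.

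Members differed by their distance to Mll2, which the rule fixes only as above 0. The 154 members within 2000 bp of a Mll2 peak had a median replicate 1 fold of 9.57 for H3K4me3 (quartiles 6.73 and 14.5) and a median Menin density of 35.0 (30.7 and 40.8). The 290 members at 2000 to 10000 bp had 10.8 and 32.3, and the 203 at 10000 to 50000 bp had 12.4 and 30.3. The 64 members farther than 50000 bp had a median H3K4me3 fold of 15.9 (11.1 and 26.8) and a median Menin density of 30.4 (26.0 and 35.5). H3K4me3 in replicate 3 ran the same way, with median folds of 8.96, 9.03, 10.3 and 11.6 from near to far. Median H3K4me3 density rose with distance too, at 31.6, 32.0, 34.5 and 42.0 in replicate 1. In replicate 3 it was 29.0, 30.4, 31.5 and 34.7. Menin fold had no such order, with medians of 9.68, 8.94, 8.94 and 10.06. The median length of the strongest Menin peak ran the opposite way, at 922.5, 820.5, 654 and 539 bp. Quartile ranges of neighbouring distance classes overlapped in each of these measures. Tags per kb divided by fold, a rough stand-in for the local background, moved with distance as well, with medians of 3.17, 3.00, 2.78 and 2.34 in H3K4me3 replicate 1, and its part in the fold enrichments was not tested.

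**Figure D4:**
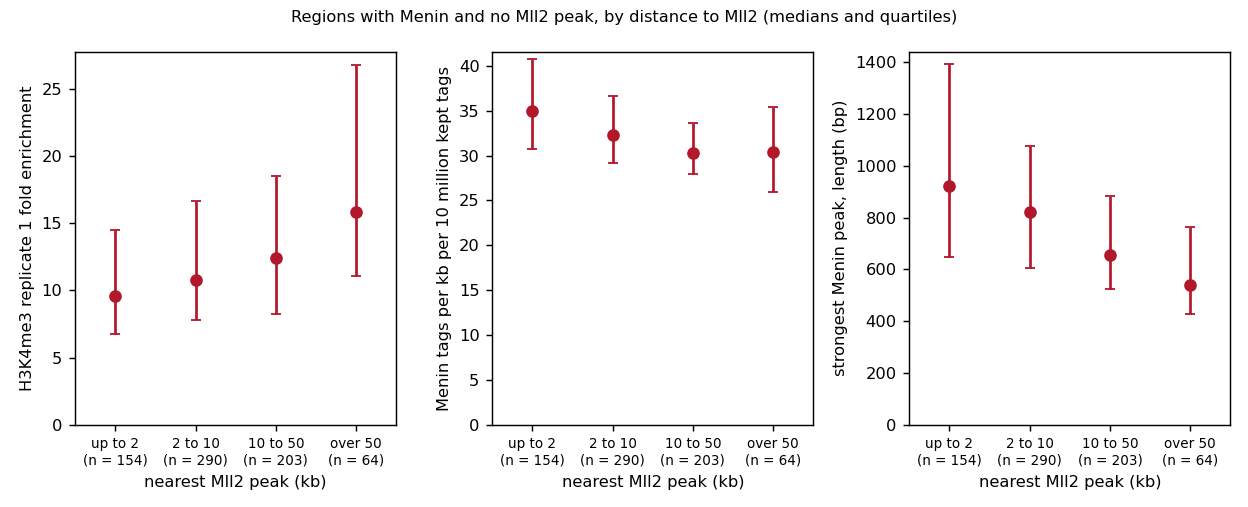
H3K4me3 replicate 1 fold enrichment, Menin tags per kb scaled to 10000000 kept tags, and length of the strongest Menin peak in bp, for the regions with Menin and no Mll2 peak in 4 classes of distance to the nearest Mll2 peak; points are medians and bars quartiles. From nearest to farthest the H3K4me3 median runs from 9.57 to 15.9 and the Menin peak length from 922.5 to 539 bp.

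The 8 members with the highest Menin fold were of 2 sorts, told apart after their values were seen. The highest Menin fold, 25.4, belonged to a member on chromosome 13 from 115246271 to 115246971 that lay 328 bp from a Mll2 peak, with H3K4me3 folds of 9.53 in replicate 1 and 8.50 in replicate 3. Its Menin peak was 5341 bp long and held 411 tags (exact Poisson 95% interval 372 to 453), and most of it lay outside the 701 bp region. The summit of that Menin peak was 898 bp from the replicate 1 H3K4me3 summit and so lay outside the region too. A member on chromosome 12 from 57792185 to 57793219 was similar, with 237 Menin tags at a fold of 25.4, a Menin peak of 3047 bp, and Mll2 at 942 bp. One on chromosome 6 from 84534714 to 84535936 had 285 Menin tags at a fold of 19.1 in a peak of 3674 bp, and Mll2 at 509 bp. The H3K4me3 regions of these 3 members were weak, with replicate 1 folds of 9.53, 14.5 and 10.4. H3K4me3 along the rest of their wide Menin peaks was not examined. The nearest other H3K4me3 region lay 69, 2758 and 392 bp from these members, in the same order.

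The other 5 had Menin peaks of 343 to 1076 bp with 23 to 51 tags, and replicate 1 H3K4me3 folds of 24.9 to 46.1. On chromosome 13 a member from 66689410 to 66691187 had a Menin fold of 24.1 from 23 tags (interval 14.6 to 34.5), H3K4me3 folds of 42.4 and 19.3 in replicates 1 and 3, and its nearest Mll2 peak 107551 bp away. At 65515580 to 65516345 of the same chromosome a member had the same Menin fold of 24.1 from 25 tags, with H3K4me3 folds of 24.9 and 14.1. At 65658196 to 65659266 another had a Menin fold of 20.7 from 35 tags and H3K4me3 folds of 37.4 and 56.4. A member on chromosome 10 from 117181872 to 117182999 had a Menin fold of 21.0 from 23 tags and H3K4me3 folds of 46.1 and 22.1, and lay 223 bp from Mll2. A member on chromosome 11 from 49063493 to 49064988 had a Menin fold of 19.5 from 51 tags and H3K4me3 folds of 26.2 and 48.1.

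By H3K4me3 fold in replicate 1, by which the next members are ordered, the strongest was at 36023987 to 36026716 of chromosome 17. Its H3K4me3 folds were 65.6 and 40.7 in replicates 1 and 3 from 701 and 311 tags. Its strongest Menin peak was 712 bp long and had a fold of 12.6. The Menin peaks that overlapped the region together held 54 tags (interval 40.6 to 70.5). The nearest Mll2 peak of this member was 6623 bp away. The next were both on chromosome 2, from 177282604 to 177283710 (H3K4me3 folds of 64.6 and 39.5, Menin fold 10.3 from 16 tags) and from 177757645 to 177758970 (64.0 and 60.2, Menin fold 8.94 from 14 tags). Their nearest Mll2 peaks were 167754 and 94707 bp away. A further member on chromosome 2, from 174966801 to 174967667, had H3K4me3 folds of 58.8 and 52.6 and a Menin fold of 12.6 from 12 tags (interval 6.20 to 21.0). At 24872679 to 24874707 of chromosome 17 the H3K4me3 folds were 60.9 and 41.3, and there the strongest Menin peak had its summit 1242 bp from the replicate 1 summit. At 67551540 to 67553268 of chromosome 13 they were 59.5 and 33.2, with Menin at a fold of 6.19 from 27 tags.

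On chromosome 5 a member from 110351786 to 110353843 was the one among the 8 strongest with the clearest Menin score, 184, from 48 tags at a fold of 14.4. Its H3K4me3 folds were 55.0 in replicate 1 and 69.6 in replicate 3, and Mll2 was 55595 bp away. At 108489170 to 108492232 of chromosome 5 the H3K4me3 folds were 54.3 and 31.3, Menin reached 8.04 from 13 tags, and Mll2 lay at 1935 bp. Among these 8 members the Menin score ran from 53.7 to 184, and 6 of the 8 were below the median of all members.

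Of the 5 members farthest from Mll2, 4 had H3K4me3 folds of at most 15.4 in replicate 1. The farthest lay on chromosome 14 from 4958429 to 4959237, with H3K4me3 folds of 10.1 and 7.52, 13 Menin tags at a fold of 11.5, and Mll2 at 744685 bp. At 114312831 to 114313770 of chromosome 1 the H3K4me3 folds were 15.1 and 8.34, with 29 Menin tags at a fold of 12.3 and Mll2 at 421424 bp. The fifth, on chromosome 2 from 177574198 to 177575615, had H3K4me3 folds of 30.7 and 42.3 and Mll2 at 278062 bp. At the other end, a member on chromosome 6 from 124948904 to 124949962 lay 32 bp from a Mll2 peak, with H3K4me3 folds of 7.49 and 8.34 and 127 Menin tags at a fold of 7.45.

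Members were spread over all 19 autosomes, with differences between them. They made up 6.24% of the H3K4me3 regions of chromosome 17 (56 of 897, interval 4.75 to 8.03%) and 5.22% of those of chromosome 5 (63 of 1206, 4.04 to 6.63%), the highest shares. The lowest were 2.05% on chromosome 14 (13 of 634, 1.10 to 3.48%) and 2.15% on chromosome 1 (22 of 1021, 1.36 to 3.24%). The intervals of chromosomes 17 and 5 overlapped each other and lay above those of chromosomes 14 and 1. The 4 chromosomes were picked for their rank among 19, so their separation is a description.

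**Figure D5:**
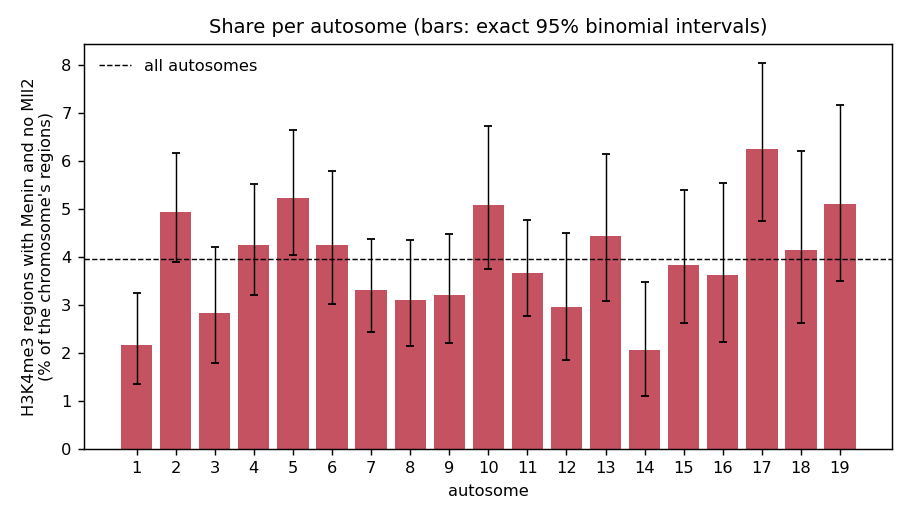
Share of each autosome's H3K4me3 regions of at most 5000 bp that had Menin and no Mll2 peak, in percent, with exact 95% binomial intervals and a dashed line at the share over all autosomes, 3.95%. Chromosome 17 is highest at 6.24% and chromosome 14 lowest at 2.05%.

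Most windows with members held a single one. Members occurred in 476 of the 2126 windows of 1 Mb that held an H3K4me3 region, and 331 of those windows held 1 member. The nearest H3K4me3 region of a member was itself a member in 5.2% of cases (3.69 to 7.10%), and the mean over comparison bins was 5.02%. The 24 windows with 4 or more members together held 107 members (15.0% of all) and 704 H3K4me3 regions. Members were 15.2% of those 704 regions, against 3.95% of all H3K4me3 regions within the width limit. The windows were picked for their number of members, so that share is a description. The window with the most, chromosome 10 from 80000001 to 81000000, had 9 members among 81 H3K4me3 regions. Of the 81, 54 held Menin and Mll2 of both sera.

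Windows on chromosomes 2 and 13 were of another make-up. They were singled out after their values were seen. On chromosome 2, the window from 177000001 to 178000000 held 14 H3K4me3 regions, of which 5 were members, 6 had neither Mll2 nor Menin, 3 had Menin and Mll2 of a single serum and none had Menin and Mll2 of both sera. The H3K4me3 folds of the 5 members had medians of 51.4 in replicate 1 (17.5 to 64.6) and 39.5 in replicate 3 (13.2 to 60.2), and their Menin tags ran from 11 to 16. On chromosome 13, the 2 windows from 65000001 to 67000000 held 31 H3K4me3 regions, of which 9 were members, 9 had neither protein and 8 had Menin and Mll2 of both sera. Their 9 members had median H3K4me3 folds of 27.5 and 22.6 and median Menin fold of 17.2, from 11 to 35 tags.

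The median H3K4me3 at these members was above that of all members in fold and in density. The median Menin fold was 10.3 on chromosome 2 and 17.2 on chromosome 13, against 8.94 over all members. Menin density was 27.4 on chromosome 2 and 38.4 on chromosome 13, against 31.9. The median H3K4me3 density was 74.2 and 79.6 in replicates 1 and 3 for the 5 members on chromosome 2 and 58.2 and 50.5 for the 9 on chromosome 13, against 32.9 and 30.6 over all members. The background stand-in was lower there, with replicate 1 medians of 2.11 on chromosome 2 and 1.90 on chromosome 13, against 2.92 over all members, and Menin medians of 2.65 and 2.27, against 3.43. Its part in the fold enrichments and in the missing Mll2 peaks was not tested. How well reads can be placed in these stretches was not analysed here, which limits what few tags or a missing peak mean there.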

How the data were processed

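Of the ChIP-seq libraries 5 were used, as peak lists: H3K4me3 replicates 1 and 3, Menin, and Mll2 with sera 9172 and 9175. Per the file headers the authors called peaks with MACS 1.4.2, separately for each library against 1 input, at a p cutoff of 1e-05 with 1 tag kept per position. Both Mll2 lists share an input. The submitters' processing notes name Bowtie 0.12.9 and build mm9. Each peak's deposited count gives its ChIP tags. The deposited fold enrichment is a ratio to the background MACS estimated, and the deposited score is minus 10 times the log10 of p. The deposited false discovery rate, in percent, was not used. These fold and score values are the authors' own for each peak.

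Regions, overlaps and bins were computed in Python 3.11.15 with pandas 2.3.3, numpy 2.4.6 and scipy 1.17.1. Density is the tags of a region's peaks per kb of peak, scaled to 10000000 kept tags. The region's fold is that of its strongest peak, and distances are gaps between edges. Keeping 1 tag per position can compress strong, narrow peaks. Shares have exact Clopper-Pearson 95% intervals, medians those of order statistics. No test was run. Overlap classes and the binned comparison were tested on simulated lists. Members and lists were chosen with earlier results of these data known. Named regions were the 8 members highest in H3K4me3 replicate 1 fold, the 8 highest in Menin fold, the 5 farthest from and 5 nearest to Mll2, the 3 widest, and the 3 that missed the rule by 1 Mll2 peak of lowest score. The 3 with the lowest Menin score were picked later, with values in view. The text gives locations for some of them. Alternatives covered overlap, score, sera, H3K4me3 replicate, binning and comparison regions. GC and CpG content were not run, since no mm9 genome was used.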

Additional observations from a re-analysis of the deposited data

Results flagged for a closer look

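Chromosome X lies outside the rule, which takes autosomes. Of its 550 H3K4me3 regions of at most 5000 bp in both libraries, 35 had Menin and no Mll2 peak of either serum (6.36%, exact interval 4.47 to 8.74%), and on the autosomes the share was 3.95%. These regions enter no comparison of the report.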

How the results depend on the processing

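Of 64 alternative values over 7 results, 40 stayed within the interval of the reported value (for the number of regions, within 1.5 times) and 24 did not. The shares below the comparison median stayed above 50% and the log2 difference above 0. Leaving out the 1 Mb windows of 4 or more members, the 20 nearest comparison regions, Menin density, and the score limit on Menin and H3K4me3 only were alternatives chosen after seeing the data. The choice of members depends on the calling limits: with a score of at least 100 in all lists 651 regions met the rule, and 181 of the 711 overlapped them. With that limit on Menin and H3K4me3 only, 181 regions met the rule. With serum 9172 as the only Mll2 list the number was 1416, and without replicate 1 or 3 it ran from 898 to 1821. The share of members with Menin fold below the comparison median was 73.3% with the score limit on all lists, 70.7% with it on Menin and H3K4me3, 72.2% in bins of density and width, 90.2% by Menin density and 90.01% by Menin density against the 20 nearest regions, and ran from 73.1 to 76.8% without a replicate. Narrower members made up 76.9% in bins of H3K4me3 fold, and 66.3 to 68.4% without a replicate. The Menin summit was inside in 96.0% with 50% overlap, 94.9% and 96.7% with the score limits (all lists first), and 84.1 to 87.5% without a replicate. Mll2 within 5000 bp was found for 36.1% and 49.2% with the score limits, 34.1% with serum 9172 as the only list, 39.3% with serum 9175, and 46.7 to 48.8% without a replicate. Another H3K4me3 region within 10000 bp was found for 55.5 to 60.8% without a replicate. The log2 difference between libraries was 0.15 and 0.14 with the score limits. Set against comparison regions over all bins, the direction turned in 3 of 10 alternatives for Mll2 within 5000 bp (43.0% of members and 45.4% of comparison regions with the settings of the report, 36.1% and 31.0% with the score limit on all lists, 49.2% and 44.0% with it on Menin and H3K4me3, 39.3% and 38.7% with serum 9175). It turned in 2 of 10 for the Menin summit (93.0% and 92.1% with those settings, 94.9% and 95.3% with the score limit on all lists, 93.0% and 93.2% in bins of fold) and in 0 of 10 for another H3K4me3 region. Without the highest bin, a choice added later, it turned in 1, 1 and 2 of 10. What caused these shifts was not tested. Width could not be compared in bins of width, and the Menin value is the same by construction when comparison regions without Menin are allowed. No paired analysis was possible because each protein had 1 library and no test was run. Depth limits which weak Mll2 sites were called.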
